A study of Mus musculus with 4 samples.

Results

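Nuclear long noncoding RNAs and noncoding hosts of small nucleolar RNAs (snoRNAs) were followed in leukaemia cells with and without a conditional knockout of Ybx1. Ybx1 encodes a Y-box protein, a class that binds both DNA and RNA. The set was taken by gene symbol: Malat1 and Neat1, which stay in the nucleus, and the snoRNA hosts Gas5, Snhg1, Snhg3, Snhg5, Snhg6, Snhg8 and Snhg12. All 9 had a row among the 28141 genes of the expression table, and all 9 passed the filter on low values, which asked for 2 or more libraries with a deposited score of 1 or higher.

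The study compared leukemia cells from bone marrow of C57BL/6 mice in 2 groups of 2 libraries each: a conditional knockout of Ybx1 (labelled YBX1cKO, here Ybx1 cKO) and wild type (WT). The labels call both groups LSCs without spelling the name out. They name no leukaemia oncogene, no Cre driver, no deleted exons and no age, and leave unsaid how the replicates relate to animals or cultures. The p-values can thus speak only to the spread among these 4 libraries, which may be technical. RNA was selected with oligo dT beads and reverse transcribed with random primers.

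Malat1 and Neat1 are made from neighbouring genes. Malat1 collects at nuclear speckles, where splicing factors are stored, and Neat1 is the RNA scaffold of paraspeckles, nuclear bodies built with proteins such as NONO and SFPQ. Both lose a small tRNA-like RNA to RNase P, and the new 3′ end of Malat1 and of the long Neat1 form is held in a triple helix of U-rich and A-rich tracts in place of a poly(A) tail. The Gas5 and Snhg genes carry snoRNAs in their introns: the introns yield box C/D or box H/ACA snoRNAs that guide chemical modification or cleavage of ribosomal RNA, while the spliced exons are exported. Spliced Gas5, in human and mouse cells, begins with a run of pyrimidines like the messengers of ribosomal proteins and is degraded by nonsense-mediated decay when it is translated.

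The 3′ tracts are shown because they are what Malat1 and Neat1 share and because the libraries were made by selection on A-rich ends. They were read from GENCODE M21 transcripts on GRCm38, minus strand, with the U-rich tracts and the A-rich tract in capitals (T for U). The Malat1 stretch is positions 6602 to 6691 of a transcript of 6983 bases at chr19:5795982-5796071, and the long Neat1 stretch is positions 20682 to 20771 of 20771 at chr19:5824708-5824797. The end of the short, polyadenylated Neat1 form, positions 2945 to 3004 of 3004 at chr19:5842307-5842366, has its polyadenylation signal AATAAA in capitals.
Malat1-201: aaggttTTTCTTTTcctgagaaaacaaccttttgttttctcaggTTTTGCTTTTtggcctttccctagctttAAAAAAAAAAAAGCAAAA
Neat1-201: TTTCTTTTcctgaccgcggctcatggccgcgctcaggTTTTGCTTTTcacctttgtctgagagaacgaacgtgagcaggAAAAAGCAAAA
Neat1-202: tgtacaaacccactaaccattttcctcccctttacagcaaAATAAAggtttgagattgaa
A search for the 3 tracts in this order, with at most 60 bases between neighbours, found them in 2 of 55450 annotated genes, Malat1 and Neat1. The searched letters were taken from these transcripts, so the match itself is no finding. The table holds 1 row per gene and cannot separate the short from the long Neat1 form.

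The snoRNA hosts are told apart by what their introns carry. GENCODE M21 places 27 genes of the type snoRNA inside the 7 hosts: 9 in Gas5 (1 of them under the microRNA symbol Mir5117), 8 in Snhg1, 4 in Snhg12, 2 each in Snhg3 and Snhg5, and 1 each in Snhg6 and Snhg8. Shown are box C/D snoRNAs of 3 hosts, with the C box TGATGA and the D box CTGA in capitals: Snord47 (chr1:161038082-161038158, plus strand) and Snord80 (chr1:161037601-161037681, plus) of Gas5, Snord50a (chr9:88521529-88521600, minus) and Snord50b (chr9:88521797-88521868, minus) of Snhg5, and Snord87 (chr1:9942463-9942549, minus) of Snhg6.
Snord47: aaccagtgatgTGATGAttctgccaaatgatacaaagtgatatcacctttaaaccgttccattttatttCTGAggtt
Snord80: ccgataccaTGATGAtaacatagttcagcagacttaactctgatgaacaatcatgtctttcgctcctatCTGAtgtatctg
Snord50a: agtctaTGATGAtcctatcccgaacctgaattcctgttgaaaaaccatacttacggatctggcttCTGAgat
Snord50b: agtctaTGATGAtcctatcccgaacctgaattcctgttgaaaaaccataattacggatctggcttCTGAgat
Snord87: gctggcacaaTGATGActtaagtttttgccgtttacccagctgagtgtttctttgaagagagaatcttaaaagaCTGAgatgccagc
The 2 snoRNAs of Snhg5 are near copies that differ by 1 substitution in 72 bases, C50A, counted from 1 at the 5′ end of Snord50a. Of the 27 snoRNAs, 1 had a row, Snord87, and it stayed below the filter with log2 levels of -0.44 and 0.54 in Ybx1 cKO and 0.14 and 0.73 in WT. The values below are those of the host rows, and the snoRNAs were not measured on their own. For Snhg1, Snhg8 and Snhg12 the annotated exons cover the whole span, snoRNA positions included. Those of Gas5 cover 3760 of 4118 bases, and the bases left over are too few to hold its 9 snoRNAs. Reads over snoRNA positions are thus not known to be absent from the values of these hosts, Gas5 included.

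Promoter windows are shown for the 4 hosts called lower in Ybx1 cKO. This choice rests on their values in these data, and whether the promoters bear on the fall was not tested. The windows come from RefSeq on GRCm38.p6, which had an entry for 7 of the 9 genes and 8 start sites. They run from 100 bases before to 25 bases from the annotated start. Capitals mark TATAAA or TATATA in the 50 bases before the start, CCAAT (the reverse complement of ATTGG, the core of the Y-box motif after which Y-box proteins are named), and the longest pyrimidine run within 25 bases of the start. The windows are Gas5 at its downstream start (chr1:161035066-161035190, plus strand), Snhg5 (chr9:88522873-88522997, minus), Snhg12 (chr4:132308578-132308702, plus) and Snhg1 (chr19:8723387-8723511, plus).
Gas5: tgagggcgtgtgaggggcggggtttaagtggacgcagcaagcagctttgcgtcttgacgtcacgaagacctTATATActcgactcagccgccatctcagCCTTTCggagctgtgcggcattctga
Snhg5: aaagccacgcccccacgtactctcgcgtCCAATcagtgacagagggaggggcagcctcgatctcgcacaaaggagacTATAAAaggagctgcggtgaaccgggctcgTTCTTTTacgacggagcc
Snhg12: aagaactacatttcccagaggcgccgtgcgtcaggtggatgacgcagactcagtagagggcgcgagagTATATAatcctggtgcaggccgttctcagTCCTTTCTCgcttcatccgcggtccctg
Snhg1: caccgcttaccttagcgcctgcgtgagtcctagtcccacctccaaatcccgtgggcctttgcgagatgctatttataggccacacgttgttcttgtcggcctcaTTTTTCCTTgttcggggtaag
TATAAA or TATATA on the strand of the gene stood in that place in 4 of the 8 windows (Gas5, Snhg5, Snhg8 and Snhg12), against 3.67% of 32851 RefSeq windows. ATTGG on either strand of the 300-base window was in 3 of 8 windows (37.5%), against 37.4% of all windows, and the longer CTGATTGG, which contains it, was in the Snhg5 window alone, against 4.1% of all. A pyrimidine run of at least 7 near the start was in 4 of 8 windows, against 29.3% of all. Runs of at least 8 were in 25% of the 8 windows, against 19.7% of all. For runs of at least 9 the shares were 25% and 13.3%. The Gas5 windows were not among these, with longest runs of 3 and 6. These matches describe letters and are not evidence of binding.

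The libraries can be described briefly. Values are given as log2 levels, the deposited scores multiplied by 0.693, because the spread between replicates fitted sampling noise on that reading. The depth is unknown. The back-transformed levels summed to 12104617 and 12134026 in Ybx1 cKO and to 11157952 and 11074317 in WT. Levels per 1000000 are shares of these sums and so set cKO values lower, relative to WT, than the deposited scale does, on which all fold changes are given. Ybx1 itself had log2 levels of 8.19 and 8.13 in Ybx1 cKO and 9.31 and 9.41 in WT, a difference of -1.20 (SE 0.08, limma adjusted p = 1.1e-11). The pan-leukocyte gene Ptprc, chosen after its values were seen, averaged 367 per 1000000 in Ybx1 cKO and 392 in WT and was not called (log2 fold change 0.03 on the deposited scale, adjusted p = 0.53). The myeloid regulator Spi1 averaged 111 in Ybx1 cKO and 83.7 in WT. Marker sums of other cell types differed between the groups. The 8 monocyte and macrophage markers with a row summed to 10585 to 10620 per 1000000 in Ybx1 cKO and 6654 to 6765 in WT. Nearly all of that difference was Lyz2: the other 7 summed to 5647 and 5738 in Ybx1 cKO and to 5531 and 5632 in WT. Most of that sum was Adgre1, chosen after its value was seen, which averaged 5094 in Ybx1 cKO and 5215 in WT. Cd68 (385 in Ybx1 cKO, 246 in WT), Cd14 (139 and 67.6) and Ccr2 (70.6 and 49.7) averaged higher in Ybx1 cKO. The rest of the 7 averaged 3.11 or less. The 6 mature neutrophil markers with a row summed to 1278 to 1290 in Ybx1 cKO and 490 to 525 in WT.

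The 9 RNAs split by class. Malat1 and Neat1 rose in Ybx1 cKO, by 1.64-fold and 1.70-fold, while 4 of the 7 snoRNA hosts fell: Gas5 by 1.36-fold, Snhg5 by 1.44-fold, Snhg12 by 1.80-fold and Snhg1 by 0.33 on the log2 scale. No host was called higher, and Snhg3, Snhg6 and Snhg8 were not called in either direction. The calls are limma adjusted p-values under 0.05 over all 15527 genes tested. Over those genes 19.5% were called higher and 17.8% lower, 37.4% in all, so a call in either direction was common in this comparison. The 2 groups did not overlap for 7 of the 9 RNAs, against 65.1% of all tested genes: 2 RNAs were higher in both cKO libraries (32.7% of all tested genes) and 5 lower in both (32.4%). The hosts had a median log2 fold change of -0.44, against 0.00 over all tested genes, and their values ran from -0.85 for Snhg12 to 0.01 for Snhg6. In bulk samples such as these, fewer cells of a type and less RNA per cell cannot be told apart.

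**Figure D1:**
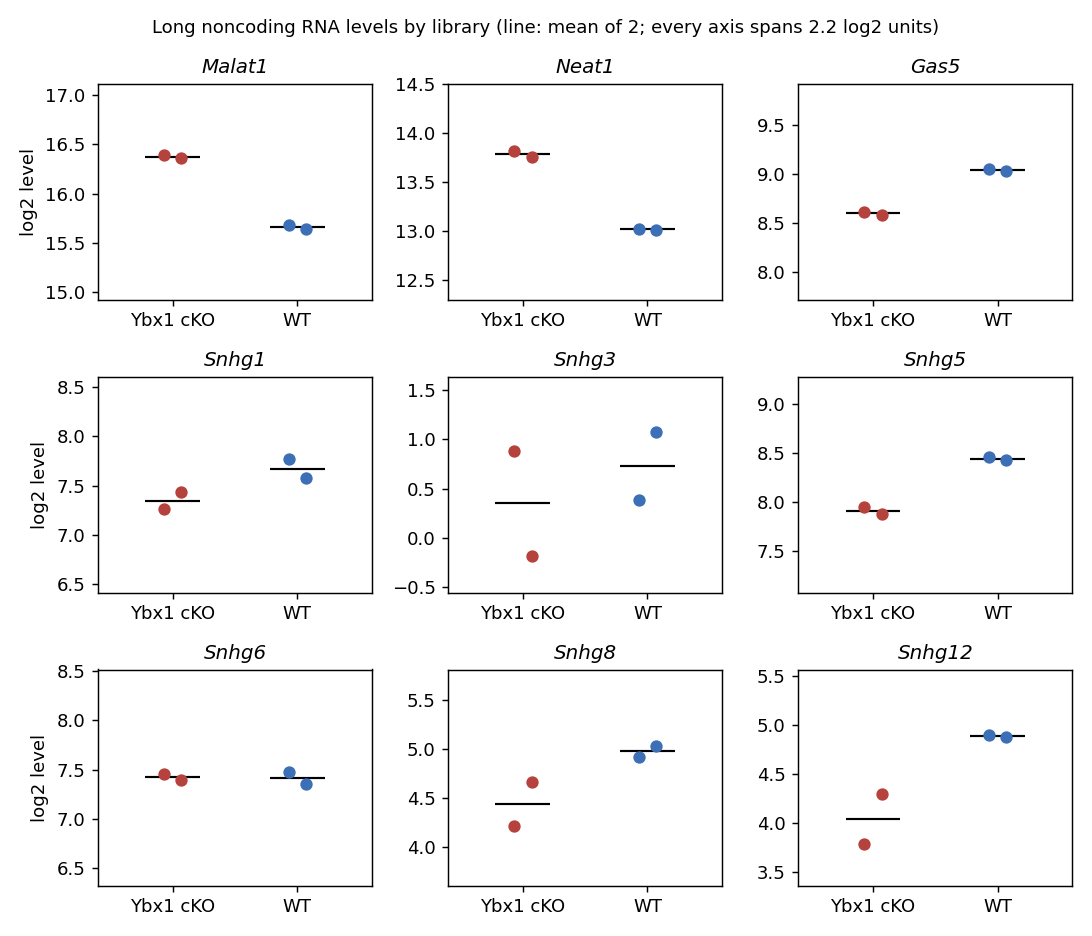
Log2 level of each RNA in each library (y axis, log2 of the back-transformed level), with Ybx1 cKO left and WT right. Each dot is 1 library and each line the mean of 2. Malat1 and Neat1 are higher in both cKO libraries, Gas5, Snhg5, Snhg1, Snhg12 and Snhg8 are lower in both, and the groups overlap for Snhg3 and Snhg6.

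Malat1 lies at chr19:5795690-5802672 on the minus strand (GRCm38) and is annotated as a lincRNA with 6983 exonic bases. It had log2 levels of 16.39 and 16.36 in Ybx1 cKO and 15.68 and 15.64 in WT. Both cKO libraries lay well above both WT libraries, and replicates were close together. The log2 fold change was 0.71 (SE 0.02, 95% interval 0.68 to 0.74, limma adjusted p = 7.0e-21), and 7.61% of the tested genes rose by at least as much. Malat1 was the 7th most abundant row of the table by mean level and made up 0.708% and 0.694% of the library sum in Ybx1 cKO, against 0.471% and 0.462% in WT. When the libraries were quantile normalized, which forces equal values on equal ranks, the difference of Malat1 shrank to 0.25 and kept its call (adjusted p = 5.5e-13).

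Neat1, at chr19:5824708-5845478 on the minus strand, is annotated with 20771 exonic bases and lies 22035 bases from the Malat1 gene, at higher coordinates. Its log2 levels were 13.81 and 13.76 in Ybx1 cKO and 13.02 and 13.02 in WT. The cKO libraries were again both higher, with no overlap. The log2 fold change of Neat1 was 0.77 (SE 0.03, 95% interval 0.71 to 0.82, limma adjusted p = 1.2e-17). The SEs, intervals and adjusted p-values of Malat1 and Neat1 lean on a prior variance that follows the level, since each group has 2 libraries. With a single prior variance for all genes the limma adjusted p-values were 0.032 and 0.032.

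On the deposited scale the ratio of Neat1 to Malat1 within each library differed less between the groups than either RNA did. As a log2 ratio it was -2.57 and -2.60 in Ybx1 cKO and -2.66 and -2.63 in WT, a difference of 0.05. By contrast the ratio of Gas5 to Malat1 was -7.78 and -7.78 in Ybx1 cKO and -6.64 and -6.62 in WT, a difference of -1.15. Multiplying a library by a constant leaves such ratios as they are, but quantile normalization does not: it gave differences of 0.29 for Neat1 to Malat1, larger than the Malat1 difference of 0.25 on that scale, and of -0.67 for Gas5 to Malat1. No test was run on these ratios. Together Malat1 and Neat1 made up 0.827% and 0.808% of the library sum in Ybx1 cKO and 0.546% and 0.537% in WT.

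The nearest tested protein-coding gene at higher coordinates than Neat1, on the side of its 5′ end, had a smaller difference. Frmd8, a scaffold protein gene 4223 bases from Neat1, rose, with a log2 fold change of 0.34 and an SE of 0.05 (limma adjusted p = 3.0e-06).

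Gas5 (growth arrest specific) lies at chr1:161034422-161038539 on the plus strand, with 25 annotated transcripts. Its log2 levels were 8.61 and 8.58 in Ybx1 cKO and 9.05 and 9.03 in WT. The cKO libraries were both lower, and the gap between groups was far wider than the gap between replicates. Gas5 differed by -0.44 (SE 0.08, 95% interval -0.60 to -0.28, limma adjusted p = 6.0e-05), and 18% of all tested genes fell by at least as much. Per 1000000 of the library sum, Gas5 had 32.3 and 31.6 in Ybx1 cKO and 47.4 and 47.1 in WT.

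Snhg5, host of the 2 near-identical Snord50 genes, lies at chr9:88521050-88522929 on the minus strand. It had log2 levels of 7.95 and 7.87 in Ybx1 cKO and 8.46 and 8.43 in WT. Again no cKO library reached a WT library. Snhg5 differed by -0.53 (SE 0.10, 95% interval -0.73 to -0.33, limma adjusted p = 8.5e-05). Gas5 and Snhg5 kept their calls under each of the 15 alternatives of processing run.

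Snhg1, which carries 8 snoRNAs on chr19:8723475-8726443 (plus strand), had log2 levels of 7.26 and 7.43 in Ybx1 cKO and 7.77 and 7.58 in WT. The groups did not overlap, but the replicates of each group lay about as far apart as the nearest libraries of the 2 groups. The difference was -0.33 (SE 0.13, 95% interval -0.59 to -0.07, limma adjusted p = 0.044). Without WT replicate 1 the adjusted p was 0.35, and without cKO replicate 1 it was 0.17.

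Snhg12, at chr4:132308623-132311024 on the plus strand and host of Snora16a, Snora44, Snora61 and Snord99, was a low-abundance RNA. It had log2 levels of 3.78 and 4.30 in Ybx1 cKO and 4.90 and 4.87 in WT. Both cKO libraries were lower, and they differed from each other more than the WT libraries did. Snhg12 had the largest fall of the 9 RNAs, -0.85 on the log2 scale, with a wide error (SE 0.32, 95% interval -1.51 to -0.18, limma adjusted p = 0.042). Its call was lost on leaving out WT replicate 1 (adjusted p = 0.17), WT replicate 2 (0.16) or cKO replicate 1 (0.19, with a difference of -0.59).

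Snhg8, the host of Snora24 at chr3:123507552-123508404 (minus strand), had log2 levels of 4.21 and 4.66 in Ybx1 cKO and 4.92 and 5.03 in WT. Both cKO libraries lay below both WT libraries. The difference of -0.54 did not pass the test (SE 0.30, 95% interval -1.16 to 0.09, limma adjusted p = 0.18), and the interval includes a fall larger than that of Gas5 or Snhg5 as well as no change.

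Snhg6, the host of Snord87 at chr1:9941959-9944118 (minus strand), had log2 levels of 7.45 and 7.39 in Ybx1 cKO and 7.47 and 7.36 in WT. The groups overlapped, with a difference of 0.01 (SE 0.13, 95% interval -0.25 to 0.27, limma adjusted p = 0.98). The lower end of that interval lies above the values measured for Gas5, Snhg1 and Snhg5, but whether Snhg6 differs from them in its response was not tested. As a share of the library sum Snhg6 had 14.5 and 13.8 per 1000000 in Ybx1 cKO and 15.9 and 14.8 in WT, so the groups overlapped on the deposited scale and not on this one.

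Snhg3, which carries Snora73a and Snora73b at chr4:132348014-132353686 (minus strand), was near the filter. Its log2 levels were 0.89 and -0.19 in Ybx1 cKO and 0.38 and 1.08 in WT. The libraries of the 2 groups were interleaved. The difference of -0.38 had an SE of 0.57 and a 95% interval from -1.56 to 0.80 (limma adjusted p = 0.66), so a change of either sign was not detectable at this level. Of its exonic bases, 71.5% are shared with Gm17300 on the opposite strand and 13.7% with Rcc1, the gene of a chromatin-bound guanine exchange factor, on the same strand. Both of these were called lower, with log2 fold changes of -0.67 for Gm17300 (adjusted p = 0.045) and -0.72 for Rcc1 (adjusted p = 6.0e-07). Strand use in the kit or the counting is not given in the sources used here, and without it reads of Snhg3 and Gm17300 cannot be told apart.

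**Figure D2:**
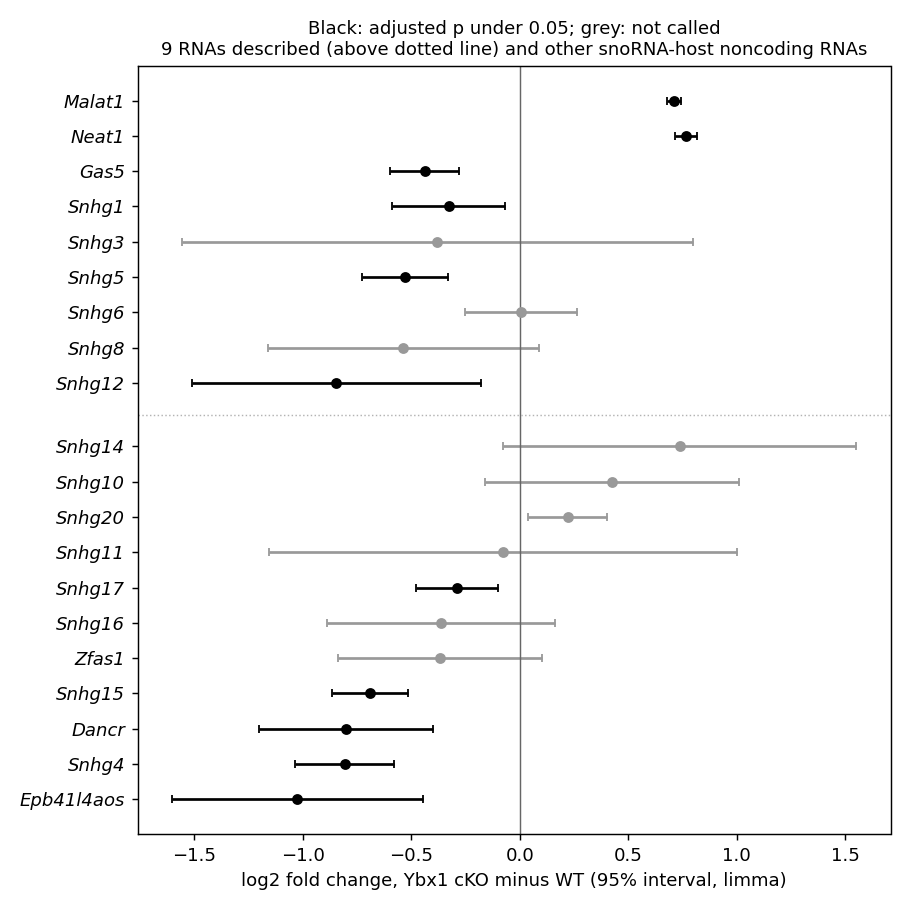
Log2 fold change of Ybx1 cKO over WT (x axis) with its 95% interval from limma for the 9 RNAs, above the dotted line, and for 11 other snoRNA-host noncoding RNAs, below it. Black marks an adjusted p under 0.05 and grey a gene not called. Malat1 and Neat1 stand at 0.71 and 0.77, the called hosts from -0.33 to -0.85, and the intervals are wide for Snhg3, Snhg8 and Snhg12.

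The called hosts were also set against Gas5 within each library, as log2 ratios with no test. The log2 ratio of Snhg5 to Gas5 was -0.66 and -0.71 in Ybx1 cKO and -0.59 and -0.60 in WT, a difference of -0.09. The ratio of Snhg1 to Gas5 overlapped between groups, at -1.35 and -1.15 in Ybx1 cKO and -1.28 and -1.45 in WT. The ratio of Snhg12 to Gas5 was lower in both cKO libraries, at -4.83 and -4.29, than in WT, at -4.15 and -4.15, a difference of -0.41 that came to -0.14 without cKO replicate 1. Summed, the 7 hosts made up 82.7 and 82.8 per 1000000 in Ybx1 cKO and 120 and 116 per 1000000 in WT.

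Per exonic length, the order of levels was led by Malat1, with 1004 per 1000000 per 1000 exonic bases in Ybx1 cKO and 668 in WT. Neat1 followed with 54.9 to 57.3 in Ybx1 cKO and no less than 35.9 in WT. On this scale Snhg5 (11.5 in Ybx1 cKO, 18.1 in WT), Snhg6 (12.3 in Ybx1 cKO, 13.4 in WT) and Gas5 (8.50 in Ybx1 cKO, 12.6 in WT) formed a middle group. The neighbours Snhg6 and Gas5 were close in WT, where the lowest Snhg6 library had 12.9 and the highest Gas5 library 12.6. The order of Snhg5 and Snhg6 differed between the groups, since the lower of the 2 Snhg6 libraries of Ybx1 cKO (12.1) exceeded the higher of the Snhg5 libraries (11.8) while in WT the Snhg5 libraries were higher. Snhg1 came next (4.53 in Ybx1 cKO, 6.19 in WT), then Snhg8 (2.12 in Ybx1 cKO, 3.32 in WT), Snhg12 (0.573 in Ybx1 cKO, 1.11 in WT) and Snhg3 (0.114 in Ybx1 cKO, 0.156 in WT). The length used is the union of all annotated exons of a gene, which overstates the length of short forms such as that of Neat1. For the hosts this union covers unequal parts of the span. It takes 3760 of 4118 bases for Gas5, 1730 of 1880 for Snhg5 and all 2969 for Snhg1, but 1146 of 2160 for Snhg6. The order of the hosts, with that of Snhg5, Snhg6 and Gas5, thus depends on the annotation.

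**Figure D3:**
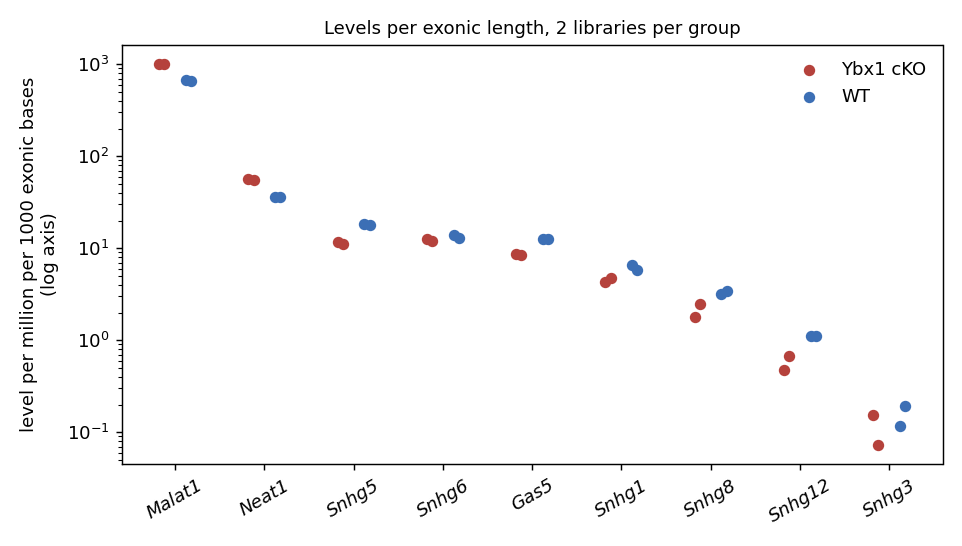
Level per 1000000 of the library sum per 1000 exonic bases (log axis) for the 9 RNAs, ordered by the WT mean, with 2 Ybx1 cKO libraries left and 2 WT libraries right for each gene. Malat1 stands at 994 to 1014 in Ybx1 cKO and 661 to 675 in WT, above all others, and Snhg3 is at or below 0.193 in every library.

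The nearest tested protein-coding genes of the hosts included rises, falls and genes that were not called. Syncrip, an RNA-binding protein gene 38475 bases from Snhg5, fell by 0.46 on the log2 scale (limma adjusted p = 5.4e-09), and Taf12, a general transcription factor subunit gene near Snhg12, fell by 0.30 (adjusted p = 1.7e-05). Slc3a2, an amino acid transporter subunit gene whose span ends 105 bases from Snhg1, rose by 0.16 (adjusted p = 1.3e-04), and Wdr74, a ribosome assembly gene on its other side, fell by 0.16 (adjusted p = 0.012). Cops5, a subunit gene of the COP9 signalosome on 1 side of Snhg6, rose by 0.26 (adjusted p = 2.1e-04). Of the other nearest tested neighbours, these were not called: Serpinc1 beside Gas5, Trnau1ap and Phactr4 beside Snhg3, Zfp949 beside Snhg5, Sgk3 beside Snhg6, Prss12 beside Snhg8 and Ank2, the nearest on the other side at 3413207 bases, and Trnau1ap, which lies 738 bases from Snhg12. Nor were Zbtb37 and Mcmdc2, antisense genes whose spans overlap Gas5 and Snhg6 (adjusted p = 0.079 and 0.64).

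Other snoRNA-host noncoding RNAs, from a list made with earlier results of these data known, fell where they were called. Of 11 tested, 0 were called higher and 5 lower, with a median log2 fold change of -0.36. The share called was 45.5%, against 37.4% over all tested genes. Among those not called, Snhg14 (0.74), Snhg10 (0.43) and Snhg20 (0.22) lay above 0 and Snhg11, Snhg16 and Zfas1 below it. The called ones were Snhg15 (-0.69, limma adjusted p = 3.7e-07), Snhg4 (-0.81, 1.8e-06), Dancr (-0.80, 0.0017), Epb41l4aos (-1.03, 0.0048) and Snhg17 (-0.29, 0.015). Genes that complete a short count without being picked by the naming rule, Snhg17 here, were chosen after their values were seen. Hosts of snoRNAs that also code for protein showed the same sign in most cases: of 36 tested, 2 were called higher and 26 lower, with a median of -0.32. In that list 77.8% were called, against 37.4% over all tested genes. Nucleolin (Ncl, -0.59), Nop56 (-0.74), the translation elongation factor gene Eef2 (-0.56) and the ribosome assembly gene Wdr43 (-0.56) had the smallest p-values of that list. The 2 called higher, chosen after their values were seen, were the chaperone gene Hspa8 (0.14, -0.25 after quantile normalization) and Rps12 (0.25).

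Genes of the proteins that bind and assemble snoRNAs mostly fell. Of 19 snoRNP proteins and assembly factors tested, 78.9% were called, against 37.4% of all tested genes. The median of the 19 was -0.45, and 1 was called higher and 14 lower. Among these were Nop56 and Nop58 (-0.59), core proteins of box C/D particles, Dkc1 (-0.61), the pseudouridine synthase of box H/ACA particles, and the nucleolar chaperone Nolc1 (-0.86). Znhit3, an assembly factor gene chosen after its value was seen, was the 1 called higher (0.55). Nop56 and Dkc1 are themselves snoRNA hosts and are counted in both lists.

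Genes of paraspeckle and speckle proteins were called lower more often than higher. Of 18 paraspeckle proteins tested, 0 were called higher and 11 lower, with a median of -0.35. That is 61.1% called, against 37.4% over all tested genes. Nudt21 fell by 0.72 on the log2 scale (limma adjusted p = 3.0e-09) and its partner Cpsf6 by 0.49 (4.5e-09), both subunits of the cleavage factor that acts at polyadenylation sites and known to bear on which Neat1 form is made. Ewsr1 fell by 0.36 (8.5e-12) and the chromatin remodeller Smarca4 by 0.41 (4.6e-07). The scaffold-binding pair Nono and Sfpq, named here after their values were seen, had differences of -0.34 (5.9e-07) and -0.89 (1.3e-04). Of 19 nuclear speckle proteins tested, 3 were called higher and 10 lower, with a median of -0.20. Here 68.4% were called, against the same 37.4%. The splicing factors Srsf7 (-0.85), Srsf3 (-0.71) and Sf3b1 (-0.35) and the helicase Ddx39b (-0.91) had the smallest p-values. The 3 called higher, chosen after their values were seen, were Srsf5 (0.27), Clk1 (0.29) and Thoc1 (0.20).

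Most factors of Malat1 3′ end formation were called lower, while a smaller share of the decay factors was called. Of 13 factors tested from RNase P, RNase Z and the triple-helix binder METTL16, 1 was called higher and 8 lower, with a median of -0.32. As a share 69.2% were called, against 37.4% over all tested genes. The RNase P subunits Rpp38 and Rpp14 fell by 0.43 and 0.35, the RNase Z gene Elac2 by 0.43, and Mettl16 by 0.32 (largest limma adjusted p of the 4, 5.8e-04). Rpp21 (0.27), chosen after its value was seen, was the 1 called higher. Of 18 nonsense-mediated decay factors tested, 2 were called higher and 6 lower, with a median of -0.16. That is 44.4% called, against 37.4% over all tested genes. Smg5 rose by 0.44 (1.9e-08) and so did the exon junction component Casc3 (0.73, chosen after its value was seen), while the exon junction protein Magoh (-0.52) and the release factor Etf1 (-0.20) fell.

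**Figure D4:**
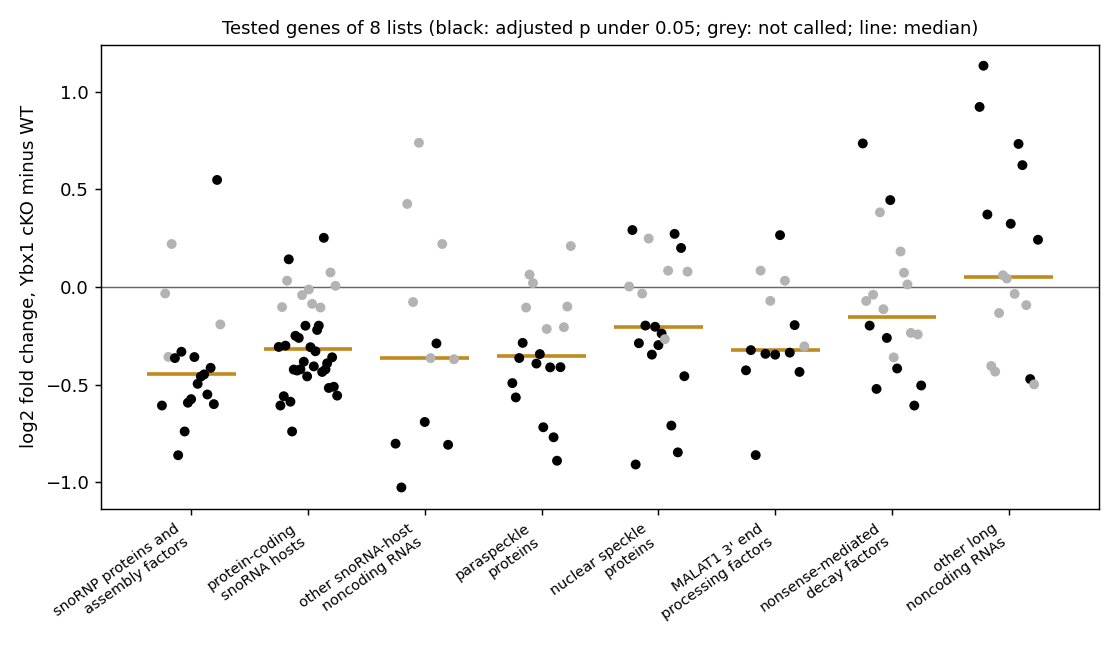
Log2 fold change of Ybx1 cKO over WT (y axis) for the tested genes of 8 lists. Each dot is a gene, black where the adjusted p was under 0.05, and each line is a list's median. The medians run from -0.45 for snoRNP proteins to 0.05 for other long noncoding RNAs, where most called genes lie above 0.

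Among other long noncoding RNAs, most of those called rose: of 16 tested, 7 were called higher and 1 lower (Pvt1, -0.47, chosen after its value was seen), with a median over all 16 of 0.05. The share called was 50%, against 37.4% over all tested genes. The largest of the named changes was that of Dleu2 (1.13, limma adjusted p = 2.9e-11), host of the miR-15a and miR-16-1 genes. 2900097C17Rik rose by 0.92 (6.1e-19), Mir22hg, host of miR-22, by 0.73 (4.4e-11), and Tug1 by 0.24 (3.3e-06). Among all tested genes with a proper name, those whose values over the 4 libraries were closest to Malat1 after centring were Acadsb, Lrrc57 and Rab1a, at Euclidean distances of 0.0139, 0.0191 and 0.0200 log2 units. For Neat1 they were Zfp710, Frat1 and Amacr (0.0178 to 0.0300), and for Gas5 they were Tulp1, Thyn1 and Ran (0.0151 to 0.0208), of which Tulp1 was not called. These distances rest on 4 libraries in 2 groups.

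Several other readouts also differed between the 2 groups, as 37.4% of all tested genes did. Mitochondrially encoded transcripts rose in Ybx1 cKO, with 9 of 11 tested called higher and 0 lower (median 0.61), and summed to 3296 to 3350 per 1000000 in Ybx1 cKO and 2541 to 2596 in WT. In this list mt-Co1 (0.61), mt-Cytb (0.43), mt-Nd5 (0.76) and mt-Nd4 (0.63) had the smallest p-values. Of the mature neutrophil markers, 5 of 6 tested were called higher and 1 lower (median 0.64), with Mmp8 at 2.75, Mmp9 at 1.67, Ceacam1 at 0.94 and Lcn2 at 0.24, and, chosen after their values were seen, Cxcr2 at 0.34 and Padi4, the 1 called lower, at -0.17. Of the monocyte and macrophage markers, 5 of 7 were called higher and 0 lower (median 0.63), with Lyz2 at 2.25, Cd68 at 0.77, Cd14 at 1.17 and Ccr2 at 0.63. Adgre1, chosen after its value was seen, was called higher at 0.09, but its direction turned with equal library sums (-0.034) and with quantile normalization (-0.20). The part of these differences in the rise of Malat1 and Neat1 or in the fall of the hosts was not tested.

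The remaining marker lists were small in the table used here. Of 5 haematopoietic and myeloid markers tested, 3 were called higher and 0 lower: Fcgr3 (1.18), Spi1 (0.53) and Itgam (1.63). The T and NK cell list had Gzmb (-1.44) and Lat (-0.55), both called lower, with a sum of 59.7 to 63.7 per 1000000 in Ybx1 cKO and 136 to 137 in WT. The B cell list had Cd79b alone (0.26, called higher). Of 4 erythroid markers, 0 were called higher and 3 lower: Tfrc (-0.51), Hemgn (-1.31) and Gata1 (-0.22). Of 6 endothelial and stromal markers tested, Pecam1 (-0.85), which leukocytes also express, was the only one called, and the other 5 tested stayed under 1 per 1000000 on average in both groups.

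**Figure D5:**
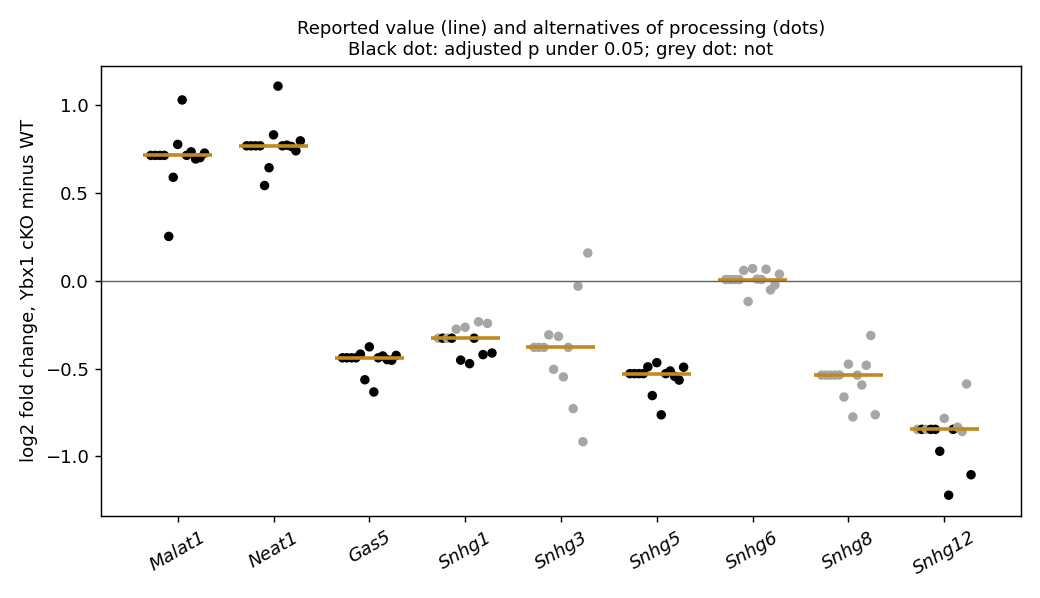
Log2 fold change of Ybx1 cKO over WT (y axis) for the 9 RNAs. The line is the reported value and each dot an alternative of processing or a fit without 1 library, black where the adjusted p was under 0.05. Malat1 and Neat1 stay above 0 and Gas5 and Snhg5 below 0 with black dots throughout. Snhg1 and Snhg12 have both black and grey dots, and Snhg3 and Snhg6 cross 0.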

How the data were processed

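The deposited table holds 1 score per gene symbol and library on a log scale; the transformation the authors applied is not given in the sources used here. Tools named in the submitters' processing notes, with no role given, are HISAT2 2.1.0, CASAVA, featureCounts and DESeq2, with the build GRCm38. Each of the 4 columns was matched to its sample by title, which left 0 columns of values unused.

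Scores were multiplied by 0.693. On that reading the spread between replicates was 1.31 (Ybx1 cKO) and 1.10 (WT) times sampling noise, against 5.94 and 4.85 for plain log2 and 43.0 and 35.1 for natural logs; this takes levels as reads, which is an assumption. Levels are not known to be counts, so no counting interval is given. If the scores were plain log2, every log2 difference would be 1.44 times as large.

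The 15527 genes scoring 1 or more in 2 or more libraries were tested with limma 3.58.1 in R 4.3.3 (lmFit, eBayes with trend), two-sided, Benjamini-Hochberg adjusted, threshold 0.05; differences are Ybx1 cKO minus WT. No pairing was used. Tables and plots used Python 3.11.15, pandas 2.3.3, numpy 2.4.6 and matplotlib 3.10.9.

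The 9 RNAs, the named-gene rule and the 16 lists (250 distinct genes, 202 with a row, 189 tested) were chosen with earlier results of these data known. Named were the 9 RNAs and Ybx1, snoRNAs inside them, overlapping genes and nearest tested protein-coding neighbours, up to 4 called genes of each list by smallest p, and the 3 genes nearest in pattern to Malat1, Neat1 and Gas5. Some single genes that this rule picked are not reported here. Predicted gene models, Rik genes and antigen receptor segments were left out of the nearest-pattern search. Positions are from GENCODE M21, which holds 27242 of the symbols, and promoters from RefSeq. Alternatives were other filters, prior variances, scalings, thresholds, a plain log2 reading, a replicate block and leaving out each library.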

Additional observations from a re-analysis of the deposited data

How the results depend on the processing

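The number of changed genes was 5803 as reported and 2267 with a prior variance without a trend. Leaving out 1 library at a time gave 4662 to 5803. The count of the 9 RNAs called higher, 2, was the same under every alternative run. The count called lower, 4, became 2 with no filter on low values, with a prior variance without a trend, with equal library medians and with an adjusted p threshold of 0.01, and 3 with quantile normalization; leaving out 1 library gave 2 to 4. The calls lost were those of Snhg1 and Snhg12. The median log2 fold change of the snoRNA hosts, -0.44, was -0.48 with a score minimum of 5 (Snhg3 was then not tested), -0.42 with quantile normalization, -0.56 with equal library sums, -0.38 with equal library medians and -0.63 with scores read as plain log2; leaving out 1 library gave -0.51 to -0.43. Equal library sums moved the median of all tested genes to -0.12, so that the hosts then lay 0.44 below it. With a replicate block, 6026 genes were changed, and 2 of the 9 RNAs were higher and 4 lower; same-numbered libraries share only a number (correlation of their deviations 0.013). Of 132 other genes named or picked by the naming rule, 66 kept their side of the threshold under every alternative run. Adgre1 reversed to -0.20 with quantile normalization and -0.034 with equal library sums, and Hspa8 to -0.25 with quantile normalization. Where an alternative changed a call or a value, the cause was not tested. A fit without 1 library assumes that the lone library varies like the other group. With 2 libraries a group, changes of Snhg3, Snhg8 and Snhg12, under 10 per 1000000 in every library, are the least precise.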
